A study of Mus musculus with 6 samples.

Results

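Of the 19938 genes that could be read singly on the arrays, 10 encode the subunits of the BAF chromatin remodelling complex that are exchanged, or differ in use, between neural progenitors and neurons. They are Actl6a, Phf10, Dpf2 and Ss18 as progenitor forms, Actl6b, Dpf1, Dpf3 and Ss18l1 as neuronal forms, and the ATPase genes Smarca2 and Smarca4. They were listed by name as subunits of this exchange, with earlier results of these data known, and each of the 10 had 1 probe set with a single gene symbol. No filter on low values was applied, so all 10 were tested. The tissue was neocortex dissected on embryonic day 14.5, and every mouse embryo gave its own Affymetrix Mouse Gene 1.0 ST array. The 3 controls carried wild-type Bcl11a on both chromosomes (Bcl11a+/+). The 3 mutants were homozygous for the deleted form of a floxed allele (Bcl11aΔflox/Δflox) and are labelled as Bcl11a knockout. The sources used here name neither the Cre line nor the deleted exon, nor do they say whether the deletion reached every cell of the tissue.

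BAF complexes use the energy of ATP to slide or evict nucleosomes, and each is built around 1 of the ATPases Brg1 (Smarca4) or Brm (Smarca2). As neural progenitors leave the cell cycle and become neurons, 3 subunit positions are exchanged: the actin-related protein BAF53a (Actl6a) gives way to BAF53b (Actl6b), the double-PHD proteins BAF45a (Phf10) and BAF45d (Dpf2) to BAF45b (Dpf1) and BAF45c (Dpf3), and SS18 to its paralog CREST (Ss18l1). The neuronal complex is known for its role in dendrite growth and synaptic function. The repressor REST holds neuronal genes off in non-neuronal cells, and miR-9* and miR-124 repress Actl6a at the exchange. The Bcl11a and Bcl11b proteins are themselves found in BAF complexes, so the deleted gene encodes a partner of the proteins described here.

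The sequences that follow belong to the pair exchanged at the actin-related position and to the microRNA that acts on it. They are from RefSeq, build GRCm38.p6, and are written 5′ to 3′. The first shows the part of the Actl6b window that resembles a REST site, on the minus strand at chr5:137553567-137553590, from base 22 to base 45 after the annotated transcription start. Its capitals mark TCAGCACC and GGACAGC, the left and right arms of the site REST binds (the RE1 element), here 9 bases apart.
Actl6b RE1 arms: TCAGCACCgaggcggccGGACAGC
The next is mature miR-9-3p (also written miR-9*), as encoded at Mir9-1 (chr3:88215652-88215673, plus strand) and identically at Mir9-3 (chr7:79505318-79505339, plus strand), with the seed, bases 2 to 8, in capitals.
miR-9-3p: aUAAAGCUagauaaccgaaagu
The last pair is the 250 bases before the start of Actl6a (chr3:32708296-32708545, plus strand) and of Actl6b (chr5:137553296-137553545, plus strand). Capitals mark CCAAT and GGGCGG, 2 common promoter motifs, on either strand.
Actl6a: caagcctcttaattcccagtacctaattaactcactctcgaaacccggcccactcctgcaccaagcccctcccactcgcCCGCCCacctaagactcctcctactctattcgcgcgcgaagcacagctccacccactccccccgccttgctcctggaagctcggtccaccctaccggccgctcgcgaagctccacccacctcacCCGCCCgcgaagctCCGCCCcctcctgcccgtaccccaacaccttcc
Actl6b: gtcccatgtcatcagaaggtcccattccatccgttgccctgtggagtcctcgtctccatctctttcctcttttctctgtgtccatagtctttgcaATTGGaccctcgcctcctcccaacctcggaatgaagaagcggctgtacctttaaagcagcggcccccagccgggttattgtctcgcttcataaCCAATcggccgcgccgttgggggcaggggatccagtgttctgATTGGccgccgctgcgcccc

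Promoter windows of 300 bases, 250 before and 50 after the start, were held for 9 of the 10 genes. The 2 RE1 arms, in this order on 1 strand and at most 10 bases apart, were present in Actl6b alone among these 9 windows, and in 18 of 32851 windows of all genes (0.0548%). This spacing was searched after the Actl6b sequence had been seen. The motif TGACCA, which the zinc fingers of BCL11A bind in globin promoters, was found on neither strand of the 9 windows, and 13.6% of all windows held it. The motif GGGCGG was found in 8 of the 9 windows, against 35.7% of all, and CCAAT in 4 of the 9, against 37.4%. These matches describe letters in a window and do not show binding.

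None of the 10 genes passed the test for a difference between mutants and controls. By limma with Benjamini-Hochberg adjustment over all 19938 genes, the lowest adjusted p of the 10 was 0.968, for Dpf1. An adjusted p under 0.05 was reached by 57 of all genes (0.286%), 49 of them higher (0.246%) and 8 lower (0.0401%). At an unadjusted limma p under 0.05, the count was also 0 of 10, against 6.05% of all genes. The log2 differences of mutant minus control ran from -0.10 for Actl6a to 0.11 for Dpf1, with 4 positive and 6 negative, against 60.3% positive over all genes. Of the 10, Phf10 turned negative with quantile normalization, and Ss18 and Ss18l1 turned positive with median centring. The median of the 10 was -0.0030 and that of all genes was 0.02. The median size of the difference, without its sign, was 0.04 for the 10 and 0.05 for all genes. The 95% intervals of the 10 differences together ran from -0.23 to 0.26. In fold terms these bounds are 0.851 and 1.20, so a change of more than 1.20-fold in either direction lay outside every one of the intervals. Each interval holds for 1 gene on its own and for RMA values of whole tissue, so these are not a joint bound. For 7 of the 10 genes the difference was smaller than the range of the 3 controls, as it was for 86.3% of all genes.

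**Figure D1:**
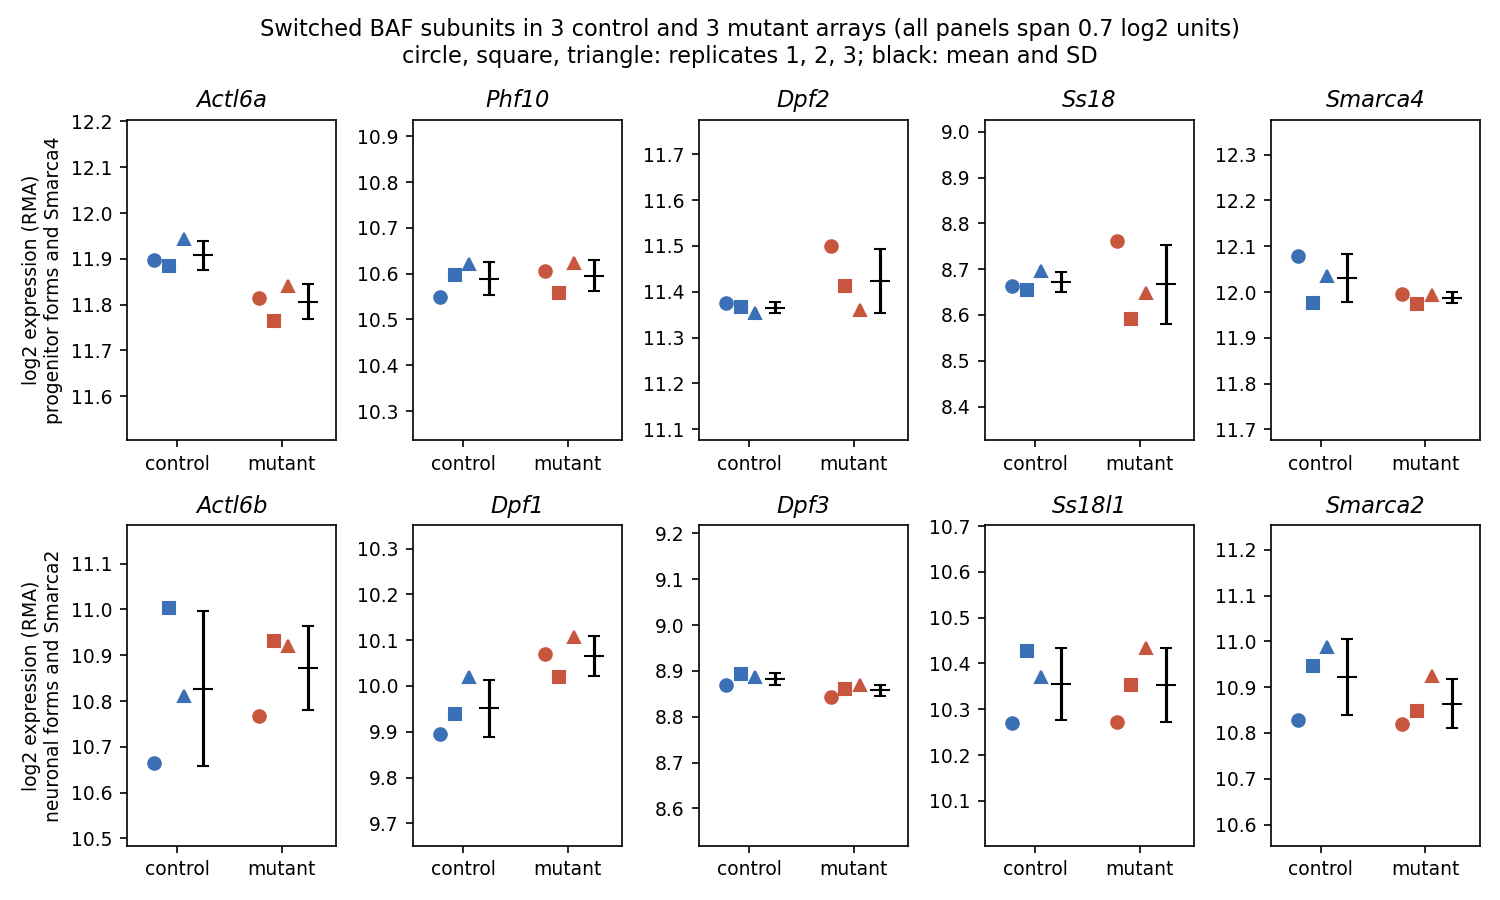
Log2 expression (RMA) of the 10 genes in each of 3 control (blue) and 3 mutant (red) arrays, with the group mean and SD (n = 3) in black; symbols mark the replicate and every panel spans the same range. Dots of the 2 groups lie at like heights in most panels, the widest spread is among the Actl6b controls (10.67 to 11.00), and the Actl6a mutants (11.77 to 11.84) lie below the controls (11.88 to 11.94).

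The progenitor forms are described first. Actl6a, whose product pairs with actin in the complex and supports progenitor proliferation, read 11.90, 11.88 and 11.94 in control replicates 1 to 3 and 11.81, 11.77 and 11.84 in mutant replicates 1 to 3. All mutants lay below all controls, by a small margin. The group means were 11.91 ± 0.03 and 11.81 ± 0.04 (SD, n = 3 arrays each). The log2 difference was -0.10 ± 0.06 (SE, 95% interval -0.23 to 0.03, limma adjusted p = 0.994). Groups that did not overlap were found for 2 of the 10 genes, Actl6a and Dpf1, and for 10.5% of all genes, with the mutants lower in 2.85%.

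Phf10, a PHD finger protein of the polybromo-type BAF complex, read 10.55, 10.60 and 10.62 in controls and 10.61, 10.56 and 10.62 in mutants. The values interleaved, with a log2 difference of 0.0064 (95% interval -0.12 to 0.14). Dpf2, which reads modified histone tails through its PHD fingers, read 11.38, 11.37 and 11.35 in controls and 11.50, 11.41 and 11.36 in mutants. The controls were tightly grouped, and mutant replicate 1 stood highest. Its difference was 0.06 (95% interval -0.08 to 0.20, limma adjusted p = 1.00), and was 0.02 without mutant replicate 1 and 0.09 without mutant replicate 3. Ss18, a coactivator that binds the ATPase module, read 8.66, 8.65 and 8.70 in controls and 8.76, 8.59 and 8.65 in mutants. The mutants lay on both sides of the controls, and the difference was -0.0039 (95% interval -0.15 to 0.14). For Ss18 and Dpf2 alike, mutant replicate 1 was the highest of the 6 arrays. That array also had the highest summed level of 9 pericyte and meninges genes, at 11.89, against 10.80 to 10.87 in controls and 10.98 to 11.08 in the other mutants (log2 of the summed linear values). The part of those cells in the subunit values was not tested. Without mutant replicate 1 the median difference of the 4 progenitor forms was -0.02 in place of 0.0012.

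The neuronal forms gave a like picture. Actl6b, the neuron-specific actin-related subunit, read 10.67, 11.00 and 10.81 in controls and 10.77, 10.93 and 10.92 in mutants. The controls alone spanned 0.34 log2 units, and all mutants lay within that span. The difference was 0.05 ± 0.09 (SE, 95% interval -0.17 to 0.26, limma adjusted p = 1.00), and it was -0.035 without control replicate 1. Actl6b was the least precisely measured of the 10, and its pooled SD of 0.14 was above that of 79.2% of all genes. The other 9 had pooled SDs below the median of all genes, between 0.01 for Dpf3 and 0.08 for Ss18l1.

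Dpf1, a neuron-restricted double-PHD subunit, read 9.90, 9.94 and 10.02 in controls and 10.07, 10.02 and 10.11 in mutants. The highest control and the lowest mutant met at 10.02, with the mutant higher beyond the second decimal. Its difference of 0.11 ± 0.06 (SE, 95% interval -0.03 to 0.26) did not pass (limma adjusted p = 0.968, unadjusted p = 0.0983). Dpf3, the other neuronal member of this family, also used in heart and muscle, read 8.87, 8.89 and 8.89 in controls and 8.84, 8.86 and 8.87 in mutants. It had the smallest spread of the 10, and its difference was -0.03 (95% interval -0.15 to 0.10). Ss18l1, the calcium-responsive coactivator CREST, read 10.27, 10.43 and 10.37 in controls and 10.27, 10.35 and 10.43 in mutants. The groups covered the same range, and the difference was -0.0020 (95% interval -0.16 to 0.16).

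Neither ATPase gene passed the test. Smarca4, the main ATPase of the developing brain, read 12.08, 11.98 and 12.03 in controls and 11.996, 11.973 and 11.993 in mutants, a difference of -0.04 (95% interval -0.17 to 0.09). Smarca2, which becomes more prominent as cells differentiate, read 10.83, 10.95 and 10.99 in controls and 10.82, 10.85 and 10.92 in mutants, a difference of -0.06 (95% interval -0.21 to 0.09). With 1 array left out in turn, the Smarca4 difference ran from -0.07 to -0.018 and that of Smarca2 from -0.10 to -0.024. The groups overlapped for both genes, and both adjusted p by limma were 1.00.

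**Figure D2:**
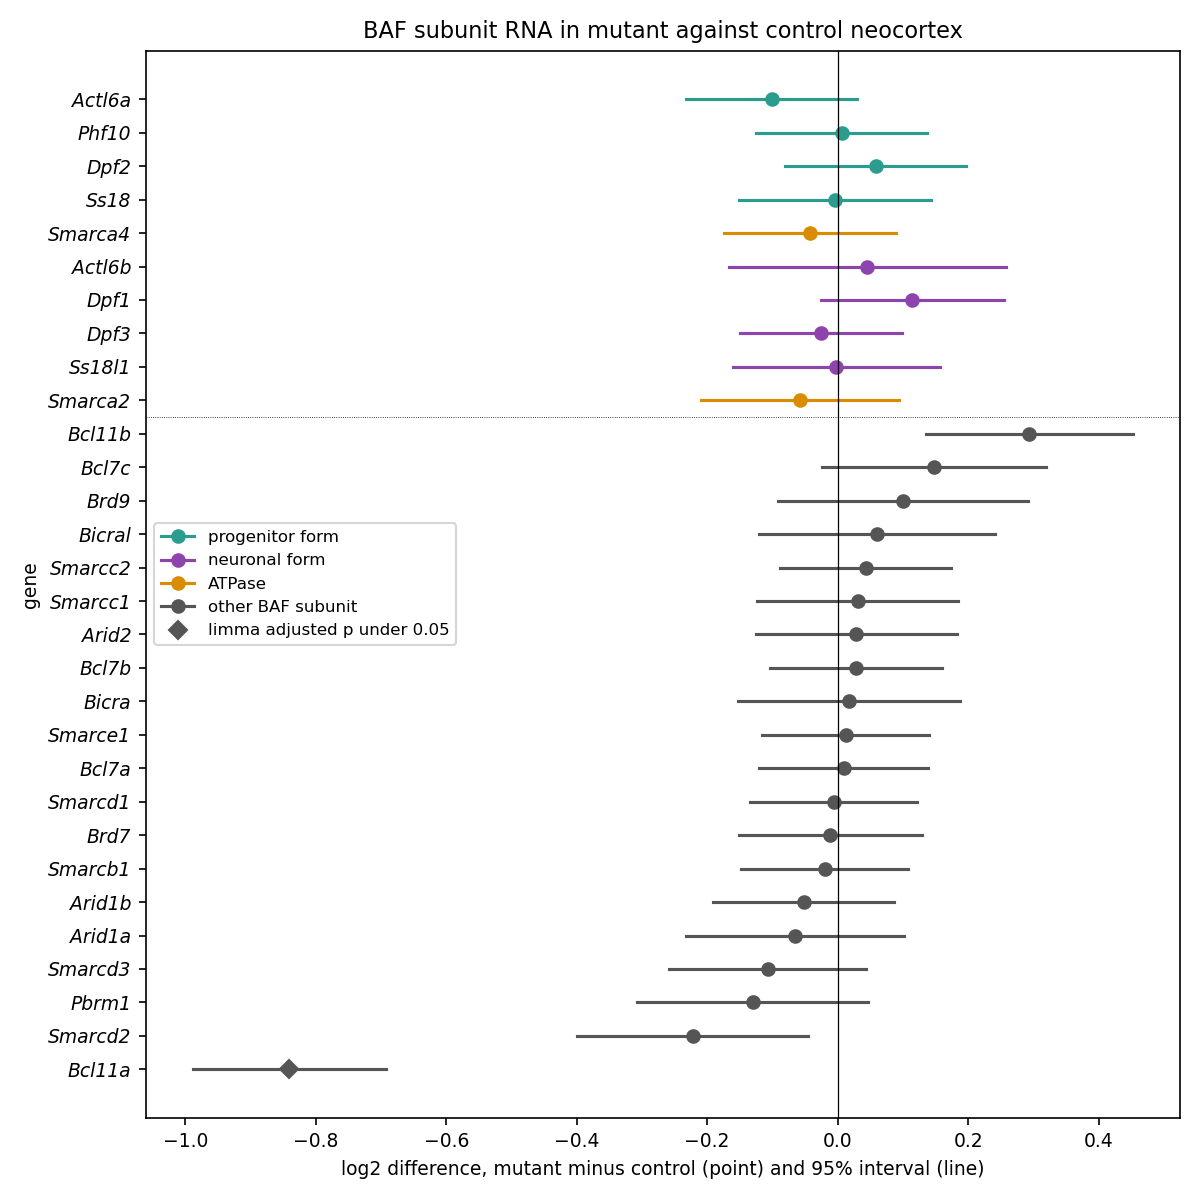
Log2 difference of mutant minus control (points) with its 95% interval (lines) for the 10 switched or ATPase genes, above the dotted line, and for 20 other BAF subunit genes, below it; a diamond marks a limma adjusted p under 0.05. The intervals of the 10 all cross 0 and stay between -0.23 and 0.26, and Bcl11a, the deleted gene, is the one diamond, at -0.84.

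The switch was also read as a balance, since the exchange is of one form for another within a complex. For each array, the mean log2 value of the 4 progenitor forms was subtracted from that of the 4 neuronal forms. Probe sets differ in their brightness, so only the movement of this balance between arrays can be read and not its sign. It was -0.70, -0.56 and -0.63 in controls and -0.68, -0.54 and -0.54 in mutants. The groups overlapped, with means of -0.63 ± 0.07 and -0.59 ± 0.08 (SD, n = 3 arrays each). The movement of 0.04 toward the neuronal forms was smaller than the SD within either group, and it was between 0.0099 (without control replicate 1) and 0.09 (without mutant replicate 1) when 1 array was left out. No p-value is given for the balance because the genes were chosen with earlier results known.

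The balance was also read by position. At the actin-related position, Actl6b minus Actl6a was -1.23, -0.88 and -1.13 in controls and -1.05, -0.83 and -0.92 in mutants. The mutant mean was 0.15 higher, and the SD of the controls was 0.18. Without control replicate 1 this was 0.07, without control replicate 2 it was 0.25, and it lay between 0.097 and 0.20 without any 1 of the other arrays. Control replicate 2 lay above 2 of the 3 mutants. The double-PHD position, Dpf1 and Dpf3 against Dpf2 and Phf10, moved by 0.01, with arrays between -1.59 and -1.50. Ss18l1 minus Ss18 moved by 0.0019, between arrays from 1.51 to 1.79. Smarca2 minus Smarca4 moved by -0.01, between arrays from -1.25 to -1.03. Without the Actl6 pair the balance moved by 0.0089 in place of 0.04.

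**Figure D3:**
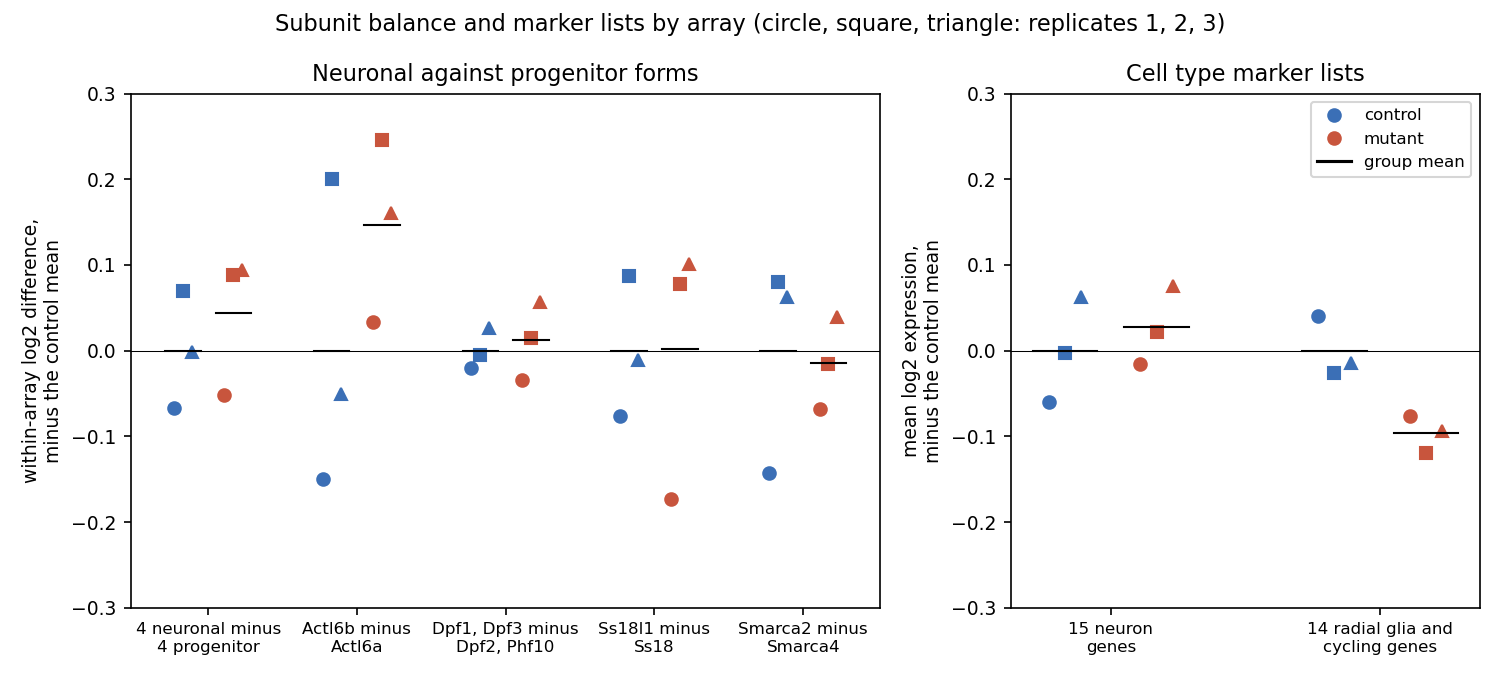
Left, the within-array log2 difference of neuronal minus progenitor forms, for all 8 genes and by position, and of Smarca2 minus Smarca4; right, the mean log2 value of 15 neuron genes and 14 radial glia and cycling genes; each is shown by array relative to the control mean, with group means as black lines. Control and mutant arrays overlap for every subunit measure and for the neuron genes, while the mutants lie below the controls for the radial glia and cycling genes when all 14 are averaged.

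Arrays of one group did not carry the same balance. Control replicate 1 held the lowest control value of all 4 neuronal forms, and mutant replicate 1 held the lowest mutant value of 3 of the 4. The mean of 15 general neuron genes was also lowest in these arrays within their groups, at 11.00 against 11.06 and 11.12 in the other controls, and at 11.05 against 11.08 and 11.14 in the other mutants. In whole tissue, fewer cells of a type and less RNA per cell cannot be told apart. None of the 15 neuron genes passed the threshold. Their median difference was 0.06, and 10 of the 15 differences were positive (66.7%, against 60.3% of all genes). Groups did not overlap for 6 of the 15, against 10.5% of all genes. An unadjusted limma p under 0.05 was reached by 3 of the 15, against 6.05% of all genes, and in opposite directions. Snap25 differed by -0.20, Nefl by 0.23 and Mapt by 0.19, so the mean of the list can hide shifts of single genes.

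Radial glia, the dividing stem cells of the neocortex, use the progenitor forms. Of 14 measured genes of radial glia and the cell cycle, 11 had negative differences (21.4% positive, against 60.3% of all genes). None of the 14 passed, and their median difference was -0.05. Their mean was 11.09, 11.02 and 11.03 in controls and 10.97, 10.93 and 10.95 in mutants, so the mutants lay below the controls, by 0.10. Of the 14, 3 were singled out after their values were seen. These were Hopx, a gene of outer radial glia, Ccnd1, the cyclin D1 gene, and Hes5, a Notch target, which differed by -0.43, -0.41 and -0.17 and did not pass. They were the most negative of the 14 and the only ones with an unadjusted limma p under 0.05 (6.05% of all genes). Without these 3 the mean of the other 11 differed by -0.031, and the groups overlapped (11.35 to 11.44 in controls and 11.36 to 11.40 in mutants). Leaving out the most negative genes makes the difference smaller in any case, so this value does not show how the list moved. Summed as linear values, the list was at 15.37 to 15.44 in controls and 15.35 to 15.36 in the mutants on the log2 scale. The 4 progenitor forms differed by -0.01 in their mean, with 10.62 to 10.65 in controls and 10.58 to 10.67 in mutants. The part of cell makeup in the subunit values was not tested.

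The other subunits of BAF, polybromo and non-canonical complexes were read as the surroundings of the switch. Of 20 such genes, 1 fell and none rose. The gene that fell was Bcl11a, the deleted gene, from 12.25 ± 0.05 to 11.41 ± 0.08 (SD, n = 3 arrays each; limma adjusted p = 0.00201). The sources used here do not say which of its probes fall within the deletion, so the size of the fall does not tell how complete the deletion was. The other 19 had a median difference of 0.01, with 11 positive and 8 negative. Bcl11b, the paralog of Bcl11a and marker of subcerebral neurons, read 11.26, 11.12 and 11.22 in controls and 11.52, 11.40 and 11.56 in mutants. These groups did not overlap, and the difference of 0.29 (95% interval 0.14 to 0.45) did not pass over all genes (limma adjusted p = 0.219). With Bcl11a, Smarcd2 and Smarcd3, groups did not overlap for 4 of the 20 genes, against 10.5% of all genes. Smarcd2, a BAF60 subunit known for its role in granulocytes, read 8.62, 8.62 and 8.55 in controls and 8.38, 8.51 and 8.24 in mutants. Its difference of -0.22 (95% interval -0.40 to -0.045) did not pass (limma adjusted p = 0.592). Smarcd3, the BAF60 paralog of heart and neural tissue, differed by -0.11, Pbrm1, the polybromo subunit, by -0.13 and Bcl7c by 0.15, with limma adjusted p of 1.00, 1.00 and 0.929. With 1 array left out in turn, these ran from -0.14 to -0.059 for Smarcd3 (nearest 0 without control replicate 3) and from -0.20 to -0.065 for Pbrm1 (without mutant replicates 3 and 1), and Bcl7c was at 0.039 with array weights.

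Regulators of the exchange were read from a list of 17 gene names, of which 12 were measured. None passed at an adjusted p under 0.05 or at an unadjusted p under 0.05 by limma. Rest read 8.87, 8.76 and 8.88 in controls and 8.89, 8.66 and 8.76 in mutants, a difference of -0.07 (95% interval -0.24 to 0.10). Ptbp1, a splicing repressor of non-neuronal cells, differed by -0.08, Ctdsp2, a phosphatase that works with REST, by -0.08, and Rcor2, a corepressor that works with it, by 0.08. With 1 array left out in turn these ran from -0.13 to -0.0094, from -0.12 to -0.036 and from 0.030 to 0.16. Mir9-1, 1 of the genes of the microRNA printed above, read 10.52, 10.01 and 9.66 in controls and 10.11, 10.22 and 9.59 in mutants. Its spread was wide in both groups, and the 95% interval of its difference ran from -0.59 to 0.42. Mir9-3 read 7.08, 6.78 and 6.60 in controls and 7.07, 7.01 and 6.61 in mutants. Both groups again covered nearly the same range, and all these values lay below the median of all probe sets (7.23 to 7.33). Mir124a-3 differed by -0.07, or by -0.0018 without control replicate 2, and its values of 6.15 to 6.39 lay below the median of all probe sets (7.23 to 7.33) in every array. Mir124a-2, another gene of miR-124, went the other way, by 0.08 (95% interval -0.15 to 0.31). It read 7.00, 6.95 and 6.99 in controls and 7.31, 6.93 and 6.94 in mutants. Apart from the 7.31 of mutant replicate 1, these values too lay below that median. Probe sets of microRNA genes read the precursor and its host transcript and not the mature microRNA.

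Marker genes gave the tissue and its other cells. The cortical projection neuron genes Neurod2 and Neurod6 read between 11.96 and 12.61 in all arrays. Of 8 intermediate progenitor genes, 7 had positive differences (87.5%, against 60.3% of all genes), with a median of 0.13. The mean of the 8 was 10.48 to 10.57 in controls and 10.66 to 10.79 in mutants, 0.19 higher. An unadjusted limma p under 0.05 was reached by 4 of the 8 (against 6.05% of all genes), the 1 lower gene among them. The part of these cells in the subunit values was not tested. Neurod4, a proneural factor, was the only one of 8 intermediate progenitor genes past the threshold, 0.66 higher in mutants (limma adjusted p = 0.0294), and its adjusted p was above 0.05 in 5 of the 6 fits that left out 1 array (up to 0.134; the exception left out control replicate 3). Of 8 erythroid genes, Hbb-bh1, Hba-x, Slc4a1, Kel, Rhag and Epb42 rose. In those fits Epb42 always missed the threshold (adjusted p up to 0.212), and Rhag missed it when mutant replicate 2 or 3 was left out (up to 0.0864). With a replicate block, Neurod4 (adjusted p = 0.121) and Epb42 (0.142) did not pass, and with sex as a covariate Neurod4 (0.118), Epb42 (0.180) and Rhag (0.0610) did not. Epb42 also missed it when every probe set was tested on its own (0.0607). The 8 differences were all positive but unequal, from 0.55 for Epb42 to 5.02 for Hbb-bh1, with a median of 0.68. The summed level of the erythroid list was 12.37 to 12.70 in controls and 13.55 to 13.76 in mutants on the log2 scale. Since the genes did not move as 1, this sum does not measure the amount of red cells. The part of red cell RNA in the subunit values was not tested.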

How the data were processed

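The deposited values are log2 expression values that the authors made with Affymetrix Expression Console and RMA, per the submitters' processing notes. RMA (background correction, quantile normalization and probe set summary) compresses differences of dim genes and hides a shift of most genes to 1 side. Array medians lay between 7.23 and 7.33, and correlations between arrays between 0.993 and 0.997. Arrays have no read depth, and their number limits the precision. Of 35556 probe sets, 21789 had 1 gene symbol in GEO's platform annotation, 1621 had several and 12146 had none listed. For each gene the single-symbol probe set with the highest mean over the 6 arrays was used. The symbols of 21698 probe sets were matched to RefSeq (GRCm38.p6), and none needed an update.

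The genotypes were compared with lmFit and eBayes of limma 3.58.1 (R 4.3.3), without a covariate, and Benjamini-Hochberg adjustment over 19938 genes. The threshold was an adjusted p under 0.05. The method was run on simulated data with differences larger than those of the 10 genes, so this run does not speak to differences of their size. Per the series text, RNA was prepared from each embryo separately. The subunits and the 14 gene lists were chosen with earlier results of these data known. Named were the 10 subunits, Bcl11a and Bcl11b, the list genes past the threshold, and the 4 further genes of lowest p among other subunits and among regulators. Of the defining genes set for the cell type lists, only Hbb-bh1, which passed, was named. Rest, Mir9-1, Mir9-3, Mir124a-2, Neurod2, Neurod6, Snap25, Nefl, Mapt, Hopx, Ccnd1 and Hes5 were named outside this rule, after their values were seen. Endothelial, microglia and ganglionic eminence lists (7, 8 and 8 genes measured) held no gene past the threshold, with medians of 0.12, 0.23 and 0.10. Differences were positive for 7, 8 and 7 of these genes, against 60.3% of all genes. An unadjusted limma p under 0.05 was reached by 1, 4 and 1 of them, against 6.05% of all genes. On the log2 scale, the summed level of the microglia list was 10.25 to 10.49 in controls and 10.58 to 10.73 in mutants. Pericyte and meninges genes (9) and cortical projection neuron genes (6) held none either, with medians of 0.29 and 0.01. Of these, 8 and 4 differences were positive, and 4 and 1 genes had an unadjusted limma p under 0.05. Whether these cell types had a part in the subunit values was not tested.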

Additional observations from a re-analysis of the deposited data

How the results depend on the processing

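None of the 10 subunit genes passed in any of 14 alternative fits, with a lowest adjusted p of 0.506 under array weights. These left out 1 array in turn, added the replicate number or the embryos' sex (read from Xist, with 2 of 3 controls and 1 of 3 mutants female), normalized or centred the arrays again, treated probe sets differently, left out dim genes or weighted the arrays. The balance of neuronal over progenitor forms moved by 0.0089 to 0.09 over all alternatives, always toward the neuronal forms and by less than its spread between arrays from the main value. The number of genes past the threshold was 57, and 20 to 50 with 1 array left out, 24 with sex as a covariate and 217 with array weights. A replicate block gave 34 genes, 29 of them shared with the 57, and no subunit passed. The deviations of arrays with the same number correlated at 0.03, -0.14 and 0.08, so the numbers were not taken as pairs.

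The median difference of the 4 neuronal forms, 0.02, did not keep its sign. It ran from -0.034 to 0.07 with 1 array left out, was negative without control replicate 1 or mutant replicate 3, and was -0.033 with array weights and -0.0018 with sex as a covariate. That of the progenitor forms, 0.0012, ran from -0.025 to 0.030 over the same fits. Directions turned for 4 subunits. With 1 array left out, the log2 difference ran from -0.035 to 0.13 for Actl6b, from -0.014 to 0.025 for Phf10, from -0.051 to 0.034 for Ss18 and from -0.044 to 0.038 for Ss18l1. Phf10 was at -0.0043 with quantile normalization, -0.011 with array weights and -0.0050 with sex as a covariate. Actl6b was at -0.036 with array weights. Median centring gave 0.0043 for Ss18 and 0.0061 for Ss18l1. The cause was not tested.
Leaving out arrays for the Actl6 pair and genes for the radial glia list was chosen after the data were seen.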
